A study of Homo sapiens with 24 samples.

Results

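The genes described here are 52 lysosome and autophagy genes, taken by symbol from a table of read counts for 23368 genes. They were split by role into 17 lysosomal enzymes and lumenal proteins, 6 lysosomal membrane proteins, 12 subunits of the vacuolar proton pump, 12 genes of the autophagy machinery, and 5 genes for transcription factors of the MiT/TFE family and for nutrient-sensing regulators of them. Of the 52 genes, 49 passed the filter on low counts and were tested, among 13947 genes tested in all. The other 3 were the enzyme genes CTSL1, listed at 0 in all 24 libraries, and SGSH, with 7 reads in all of them together, and the regulator gene RRAGD, with 3 reads. Whether these counts reflect expression or how reads were assigned to these symbols in the authors' annotation was not tested (CTSL1 is an older symbol of CTSL), so they are not read as absence of expression.

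Lysosomes are acidified by the vacuolar ATPase, a proton pump with a membrane sector (V0) and a cytosolic sector that hydrolyses ATP (V1), and their hydrolases break down proteins, glycans and lipids delivered by endocytosis or autophagy. TFEB, TFE3 and MITF are basic helix-loop-helix leucine zipper transcription factors that bind E-boxes with the core CACGTG in the promoters of many lysosomal genes, and an extended form, TCACGTGA with a G before it and a C after it, is known as the CLEAR element. The kinase complex mTORC1, which sits on the lysosomal surface when nutrients are plentiful, phosphorylates TFEB and TFE3 and holds them in the cytosol, so protein location, which these data do not measure, sets much of their activity.

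RNA was sequenced from AGS, a human cell line derived from an adenocarcinoma of the stomach and labelled as wild type, 24 h after inhibitors were added. The 6 groups of 4 replicates were a control given none of the inhibitors, PI103 at 0.7 µM (an inhibitor of PI3 kinase and mTOR), PD0325901 at 0.035 µM (an inhibitor of MEK), (5Z)-7-oxozeaenol at 0.5 µM (an inhibitor of TAK1, called oxozeaenol here), and 2 combinations, written PI103+oxozeaenol and PI103+PD0325901 below. The combinations held 50% of the single-agent concentration of each compound. The labels do not say whether the control cells received a vehicle, and they name the replicate number, 1 to 4, as the batch.

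The libraries held 38057638 to 84226380 reads in genes. The 6 epithelial markers (KRT8, KRT18, KRT19, EPCAM, CLDN4 and CDH17) summed to between 4781 and 7887 CPM. CPM here are the counts scaled to a common library size, with totals adjusted by edgeR's TMM method. Group means of CDH17 ran from 112 CPM with PI103 to 307 with PD0325901. All 6 leukocyte and all 4 endothelial markers were under 1 CPM in every library. Of the 6 fibroblast markers, 4 were under 1 CPM in every library (DCN and COL1A2 with 2 and 3 reads over all 24), and the sum of all 6, mostly COL1A1, ran from 14.3 to 17.4 CPM in control, 32.3 to 34.4 with PI103, 18.2 to 22.4 with PD0325901, 8.18 to 10.02 with oxozeaenol, 9.22 to 11.2 for PI103+oxozeaenol and 21.8 to 25.8 for PI103+PD0325901. The part of COL1A1 in the results below was not tested. A total of 3 libraries stood apart. Replicate 2 of PD0325901 and of PI103+PD0325901 had the highest shares of reads in the 52 genes, at 0.805% and 0.889%, and replicate 2 of oxozeaenol had the most genes with a read, 18263. The PD0325901 and PI103+PD0325901 libraries were thus picked by the level of the 52 genes themselves. Lower values of these genes without them follow in part from that choice. CPM is relative to the other genes of a library, so a change in RNA content common to all genes would not show. The scaling takes the bulk of genes as unchanged, while 51.4% to 64.8% of the genes tested passed an adjusted p of 0.05 against control. In bulk RNA of this kind, a change in the proportions of cells in different states and a change in RNA per cell cannot be told apart.

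The promoters of 38 of the 52 genes were found in RefSeq (GRCh38.p14), as windows from 250 bases before to 50 bases after the gene start, and 14 genes had no entry. The 5 stretches below carry the longer forms of the E-box that MiT/TFE factors are known to bind and belong to genes whose values follow. They are written 5′ to 3′ on the gene's strand, with the matches in capitals: CACGTG alone, TCACGTGA around it, or the full CLEAR element. The stretches are LAMP1 (chr13:113297039-113297258, plus strand), ATP6V0D1 (chr16:67481138-67481257, minus strand), GAA (chr17:80101481-80101600, plus strand), MCOLN1 (chr19:7522524-7522643, plus strand) and CTSA (chr20:45891235-45891354, plus strand). Each runs to 20 bases past the start.
LAMP1: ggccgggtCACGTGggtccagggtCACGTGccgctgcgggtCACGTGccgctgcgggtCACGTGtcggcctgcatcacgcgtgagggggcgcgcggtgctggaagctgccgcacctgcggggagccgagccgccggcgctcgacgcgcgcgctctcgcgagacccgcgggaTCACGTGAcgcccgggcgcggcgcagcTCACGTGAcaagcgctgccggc
ATP6V0D1: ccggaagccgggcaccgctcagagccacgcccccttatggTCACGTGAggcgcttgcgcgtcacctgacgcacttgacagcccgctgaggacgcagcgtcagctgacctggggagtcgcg
GAA: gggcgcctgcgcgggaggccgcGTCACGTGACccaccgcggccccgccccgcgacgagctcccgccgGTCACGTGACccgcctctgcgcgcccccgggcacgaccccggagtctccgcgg
MCOLN1: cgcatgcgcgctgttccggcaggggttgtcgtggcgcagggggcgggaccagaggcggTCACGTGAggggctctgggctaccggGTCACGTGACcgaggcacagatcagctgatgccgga
CTSA: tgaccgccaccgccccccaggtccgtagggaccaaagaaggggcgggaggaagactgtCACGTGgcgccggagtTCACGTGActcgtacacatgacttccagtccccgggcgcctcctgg
The CLEAR element was found in 2 of the 38 promoters, those of GAA and MCOLN1, which is 5.26% against 0.381% of 27305 RefSeq promoters of the same length. TCACGTGA was in 5 of the 38 (13.2%, against 1.04%), and CACGTG was in 10 (26.3%, against 7.43%): ATP6V0B, NEU1, CTSD, CD63, LAMP1, ATG14, ATP6V0D1, GAA, MCOLN1 and CTSA. These motifs read the same on both strands, each longer form contains the shorter ones, and a match is only a stretch of letters, not evidence of binding.

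**Figure D1:**
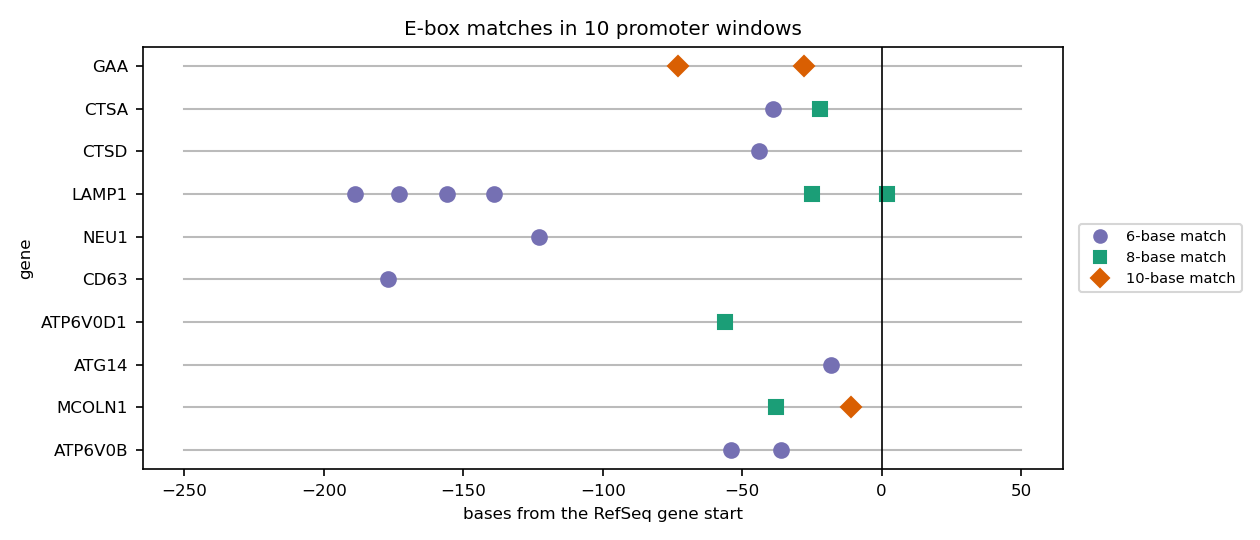
Positions of E-box matches (horizontal axis, bases from the RefSeq gene start) in the 10 promoter windows that hold CACGTG, 1 gene per line; symbols give the longest match at each place (circles 6 bases, squares 8, diamonds the 10-base CLEAR element). GAA has 2 matches of 10 bases, MCOLN1 has 1, and LAMP1 has the most matches, 6 in all.

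Against control, more of the 49 genes were called higher than lower in every treatment, but their roles differed: most enzymes were called higher, while more autophagy genes were called lower than higher with PI103, oxozeaenol and PI103+oxozeaenol. With PI103, 19 of the 49 tested genes were called higher and 11 lower, with 51.4% of all genes tested called in either direction (26.2% higher, 25.2% lower). With PD0325901, 29 were higher and 3 lower (58.6% of all genes called, 28.7% higher and 29.9% lower). With oxozeaenol, 25 were higher and 12 lower (51.9%, 25.7% and 26.1%). A call here is an adjusted p under 0.05, from the quasi-likelihood test of edgeR, with p-values adjusted by the method of Benjamini and Hochberg over all genes tested.

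For PI103+oxozeaenol, 22 of the 49 were higher and 9 lower, where 55.6% of all genes were called (27.7% higher, 27.9% lower). For PI103+PD0325901, 31 were higher and 6 lower, where 64.8% were called (32.2% and 32.6%). The median log2 fold changes of the 49 genes were 0.13 with PI103, 0.36 with PD0325901, 0.26 with oxozeaenol, 0.13 for PI103+oxozeaenol and 0.43 for PI103+PD0325901. Over all genes tested, those medians lay between -0.02 and 0.02. The shares of the 49 called in either direction were 61.2%, 65.3%, 75.5%, 63.3% and 75.5% in the same order, each above that of the whole table. The shares called higher were 38.8%, 59.2%, 51.0%, 44.9% and 63.3%. Here and below, the whole table was not matched to the 49 genes by level of expression. The part of level in these shares was not tested. Without the 3 libraries that stood apart, a check added after the values were seen, 31, 32, 38, 34 and 38 of the 49 were called. The shares of all genes called in those fits are not given here.

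A total of 14 genes were higher in all 5 treatments: the enzymes CTSA, CTSD, CTSZ, GAA, GUSB, HEXA, PSAP, NPC2 and TPP1, the membrane proteins LAMP1, LAMP2 and SCARB2, the pump subunit ATP6AP1, and WIPI2 of the autophagy machinery. Only 3 were lower in all 5, MAP1LC3B, UVRAG and TFE3. Over the whole table, 11.5% of the genes tested were higher in all 5 and 13.5% lower. Another 6 were higher in one treatment and lower in another (GLA, ATP6V1D, ATP6V1E1, GABARAPL1, ATG14 and NBR1), where 5.36% of all genes tested had calls in both directions, and 3 tested genes were called in none (MCOLN1, ATP6V0C and ATP6V1B2). All 5 comparisons share the 4 control libraries, so they are not independent of each other. Every call against control had the same sign in all 4 batches, except the lower value of NPC1 with oxozeaenol, which had it in 3. The calls rest on these same libraries, so this agreement is not separate support for them. The share with such agreement among all genes called is not given here.

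The control and treated libraries did not overlap in CPM for 30 of the 49 genes with PI103 (48.9% of all genes tested), 30 with PD0325901 (49.0%), 32 with oxozeaenol (42.2%), 31 for PI103+oxozeaenol (52.6%) and 34 for PI103+PD0325901 (56.9%).

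**Figure D2:**
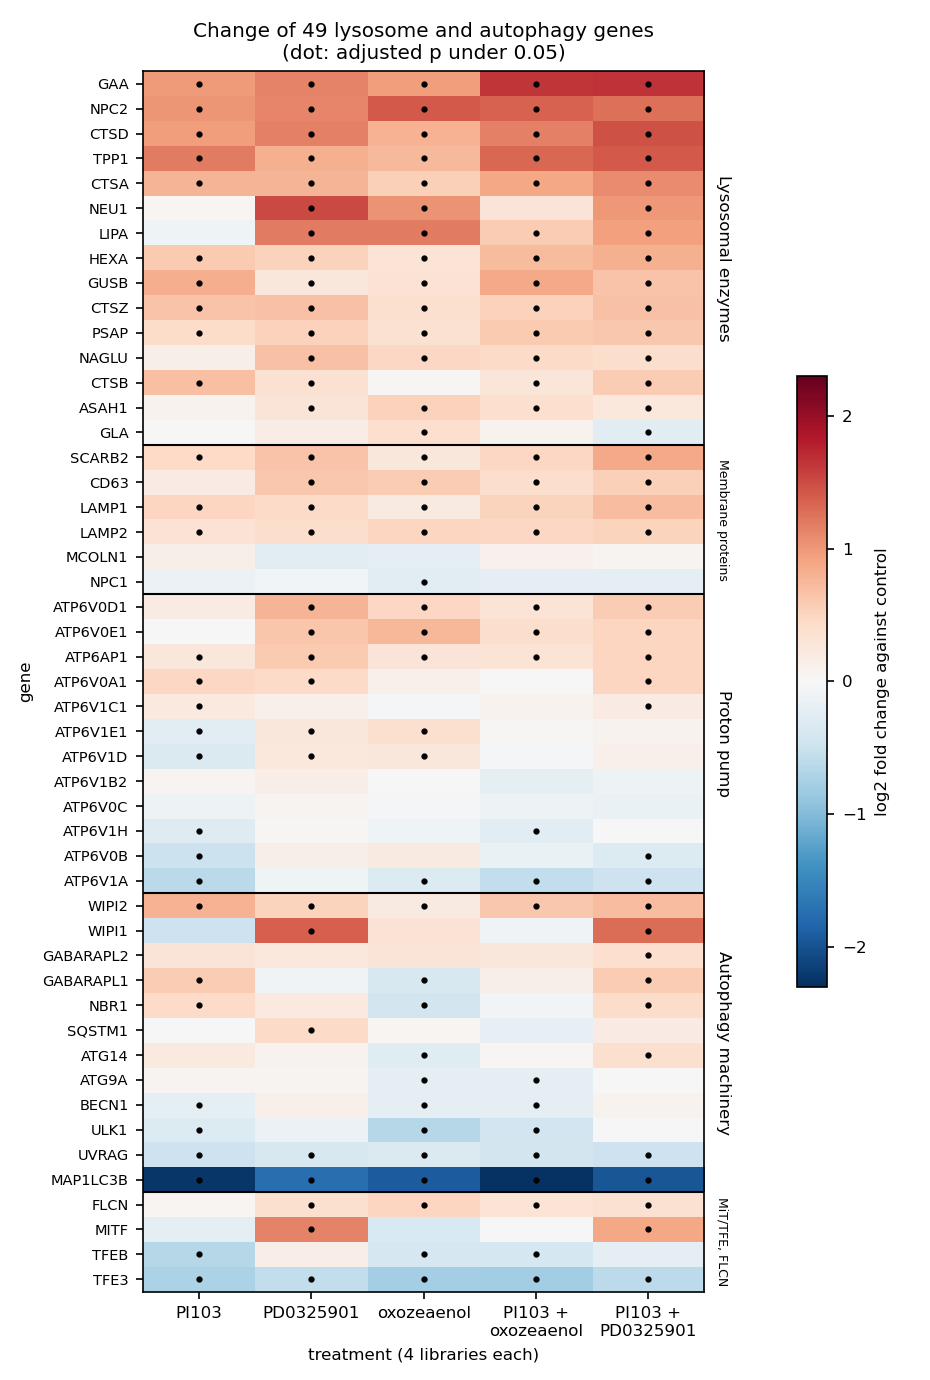
Log2 fold change against control (colour) of the 49 tested genes (rows, grouped by role and ordered by mean change) in the 5 treatments (columns, 4 libraries each); a dot marks an adjusted p under 0.05. The enzyme block is red nearly throughout, MAP1LC3B is the darkest blue row in all 5 columns, and the pump and autophagy blocks hold both colours.

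Averaged over the genes of a role in each library, the 15 tested enzymes lay above control by 0.55 ± 0.0324 with PI103, 0.74 ± 0.0918 with PD0325901, 0.63 ± 0.0338 with oxozeaenol, 0.74 ± 0.0540 for PI103+oxozeaenol and 0.83 ± 0.113 for PI103+PD0325901 (log2 CPM minus the control mean, mean ± SD, n = 4). No treated library reached down to the control libraries, whose highest value was 0.05. The 6 membrane proteins followed at lower values, from 0.18 ± 0.0710 with oxozeaenol to 0.41 ± 0.0824 for PI103+PD0325901. The pump was at -0.07 ± 0.0512 with PI103 and 0.28 ± 0.0778 with PD0325901, on opposite sides of 0. The autophagy genes were lowest with oxozeaenol, at -0.29 ± 0.0423, a level below all 4 control libraries. They were highest for PI103+PD0325901, at 0.13 ± 0.105, where libraries from 0.05 to 0.28 met the upper end of control. These means include MAP1LC3B, at -1.92 with oxozeaenol and -1.97 for PI103+PD0325901, which pulls both down. The medians of the log2 fold changes of the 12 genes were -0.24 and 0.28.

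**Figure D3:**
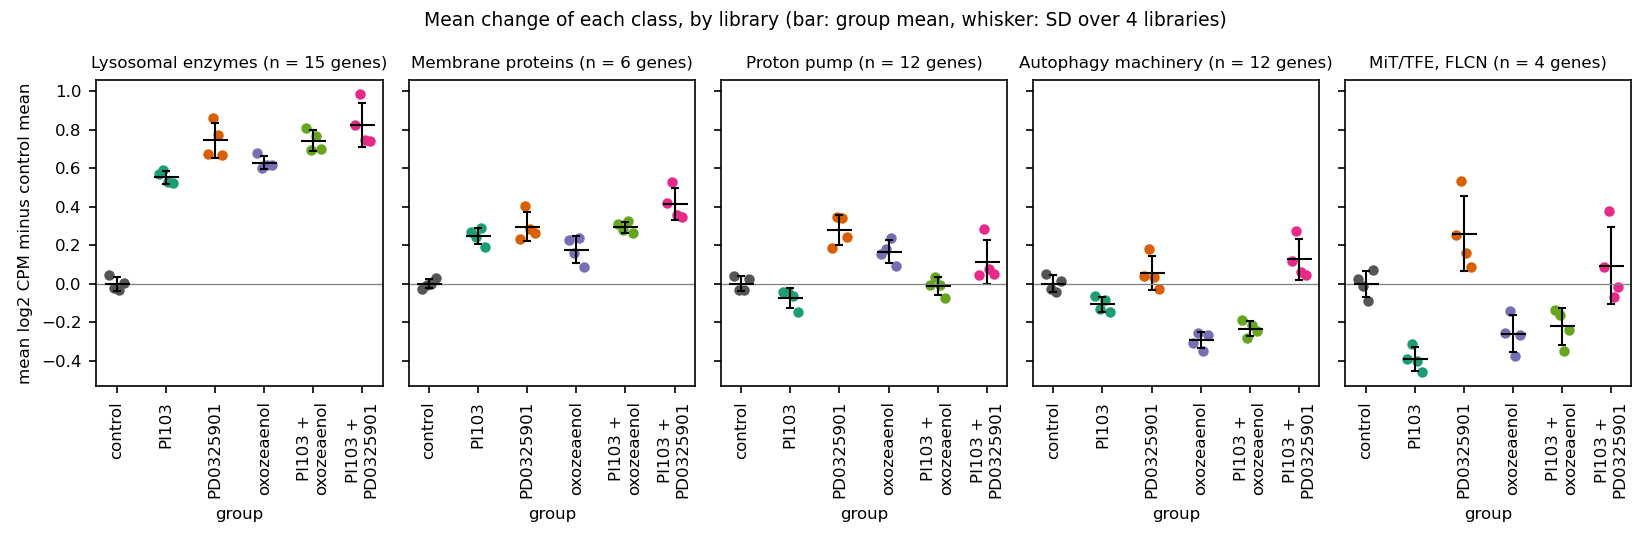
Mean log2 CPM of the tested genes of each role, minus the control mean (vertical axis), for every library (points) in the 6 groups; the bar is the group mean and the whisker the SD over 4 libraries. Enzymes are above control in all treated libraries, while the pump separates PI103 from PD0325901 and the autophagy panel places oxozeaenol lowest. The autophagy means include MAP1LC3B, which fell in every treatment.

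Among the 15 tested enzymes and lumenal proteins, 10 were called higher and 0 lower with PI103, and the counts were 14 and 0 with PD0325901, 14 and 0 with oxozeaenol, 13 and 0 for PI103+oxozeaenol, and 14 and 1 for PI103+PD0325901. The shares called higher, 66.7%, 93.3%, 93.3%, 86.7% and 93.3%, stood beside 26.2%, 28.7%, 25.7%, 27.7% and 32.2% of all genes tested. The medians of their log2 fold changes were 0.65, 0.68, 0.53, 0.59 and 0.81 in that order. GAA, NPC2, TPP1 and CTSD had the largest changes that held in all 5 treatments, and GLA was the one enzyme called in both directions. GAA (chr17:80101594-80119879 on GRCh38, from GENCODE release 29, as for all gene positions given here) encodes acid alpha-glucosidase, which breaks down glycogen in lysosomes.

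Per-library values are given below in the order of replicates 1 to 4. GAA stood at 20.4, 18.01, 14.4 and 17.97 CPM in control, 33.6, 36.1, 33.6 and 36.4 with PI103, 41.4, 42.5, 36.9 and 35.2 with PD0325901 and 38.6, 32.1, 32.5 and 34.6 with oxozeaenol. In the combinations GAA was 57.7, 49.9, 56.9 and 56.98 CPM for PI103+oxozeaenol and 61.4, 63.4, 49.2 and 48.7 for PI103+PD0325901. Every treated library lay above every control library, and the 8 combination libraries lay above all 12 single-agent libraries. The log2 fold changes ± standard error (SE) were 0.98 ± 0.103 (adjusted p = 1.7e-08) with PI103, 1.14 ± 0.103 (adjusted p = 8.39e-10) with PD0325901 and 0.96 ± 0.103 (adjusted p = 2.66e-08) with oxozeaenol. For the combinations they were 1.65 ± 0.104 (adjusted p = 2.57e-12) with oxozeaenol and 1.65 ± 0.104 (adjusted p = 8.79e-13) with PD0325901. These were 1.97-fold, 2.20-fold, 1.95-fold, 3.13-fold and 3.15-fold rises.

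NPC2 (chr14:74476192-74493512), a soluble cholesterol carrier of the lysosome, rose in all 5 treatments. NPC2 measured 126, 137, 121 and 134 CPM in control, 270.4, 256, 254 and 267 with PI103, 242, 289, 310.3 and 288 with PD0325901 and 299.98, 328, 334 and 422 with oxozeaenol. In the combinations NPC2 was 346, 300.4, 312 and 364 CPM for PI103+oxozeaenol and 281, 346, 282 and 337 for PI103+PD0325901. Treated and control libraries were well apart, and oxozeaenol replicate 4 was the highest of all 24. The log2 fold changes were 1.02, 1.13, 1.42, 1.35 and 1.27 for PI103, PD0325901, oxozeaenol, PI103+oxozeaenol and PI103+PD0325901, an order kept in all such lists below. Their SEs were near 0.102, and the adjusted p-values ran from 3.12e-11 to 6.81e-09.

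CTSD (chr11:1752752-1763992), the main aspartic protease of lysosomes, rose in all 5 treatments and was the enzyme gene next to PSAP in level per kilobase of exon. CTSD counted 216, 189, 188 and 199 CPM in control, 376, 415, 379.9 and 372 with PI103, 430.1, 513, 444 and 379 with PD0325901 and 379, 348, 341 and 315 with oxozeaenol. In the combinations CTSD was 488, 416, 457 and 406 CPM for PI103+oxozeaenol and 591, 650.2, 486 and 447 for PI103+PD0325901. No treated library fell within the control range, and replicate 2 of PI103+PD0325901 was the highest of the 24. Log2 fold changes were 0.96, 1.16, 0.80, 1.16 and 1.46, with adjusted p-values of 4.04e-08, 1.16e-09, 6.82e-07, 1.45e-09 and 1.37e-11. Of the exons of CTSD, 54.9% lie under another gene on the same strand in GENCODE (AC068580.4). Ambiguous reads were tallied apart by the authors, so reads there may be missing from its count if their annotation held that gene.

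CTSA (chr20:45891044-45898820), a carboxypeptidase that protects the sialidase NEU1 and beta-galactosidase in a complex, rose with each agent and most with the combination of PI103 and PD0325901. CTSA stood at 83.6, 74.1, 77.7 and 77.4 CPM in control, 135, 145, 132 and 127 with PI103, 132, 150.1, 135 and 117 with PD0325901 and 129.7, 108, 113 and 108 with oxozeaenol. In the combinations CTSA counted 153, 141, 149.996 and 136 CPM for PI103+oxozeaenol and 174, 185, 153 and 149 for PI103+PD0325901. All 20 treated libraries were above the 4 control libraries. The log2 fold changes were 0.78, 0.77, 0.55, 0.89 and 1.08, with adjusted p-values of 3.95e-08, 3.14e-08, 7.88e-06, 3.57e-09 and 6.26e-11. Genes on the opposite strand cover 29.6% of its exons, and whether the counting used strand is not given in the sources used here.

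TPP1, the tripeptidyl peptidase lost in a childhood neuronal storage disease, went from 33.6 ± 3.94 CPM (SD, n = 4) in control to 77.03 ± 2.93 with PI103, 59.2 ± 9.96 with PD0325901, 56.02 ± 7.84 with oxozeaenol, 84.3 ± 6.55 for PI103+oxozeaenol and 89.1 ± 11.03 for PI103+PD0325901. Its log2 fold changes were 1.20, 0.82, 0.74, 1.33 and 1.41. GUSB, the beta-glucuronidase, showed a PI103-led pattern, with 0.83, 0.26, 0.33, 0.88 and 0.66. HEXA, the alpha subunit of beta-hexosaminidase, gave 0.60, 0.53, 0.31, 0.73 and 0.81, CTSZ, a cysteine carboxypeptidase, 0.65, 0.68, 0.36, 0.53 and 0.68, and PSAP, the precursor of the saposins that assist sphingolipid breakdown, 0.43, 0.53, 0.34, 0.59 and 0.62. All of these were called higher. CTSB, a cysteine protease, was higher in 4 treatments, with the largest rise with PI103 at 0.69 ± 0.0907 (adjusted p = 5.89e-07), and was 0.03 ± 0.0904 (adjusted p = 0.785) with oxozeaenol. Its rise for PI103+oxozeaenol, 0.27 ± 0.0904 (adjusted p = 0.0120), was not called without replicate 1 of that combination (0.22, adjusted p = 0.0725).

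Other enzymes moved with PD0325901 and oxozeaenol and not detectably with PI103. NEU1, the lysosomal sialidase, is described here in full because its values stood out, outside the rule for named genes. NEU1 stood at 26.5, 31.2, 29.8 and 36.2 CPM in control, 29.7, 34.8, 30.6 and 32.6 with PI103, 69.7, 106, 85.9 and 92.9 with PD0325901 and 58.2, 66.6, 64.5 and 64.99 with oxozeaenol. In the combinations NEU1 measured 36.1, 39.9, 36.5 and 39.5 CPM for PI103+oxozeaenol and 45.6, 92.5, 49.8 and 58.8 for PI103+PD0325901. PI103 libraries lay within the control range, those of PD0325901, oxozeaenol and PI103+PD0325901 lay above it, and replicate 2 of PI103+PD0325901 was far above its other 3. Log2 fold changes were 0.05, 1.52, 1.04, 0.30 and 0.99, with adjusted p-values of 0.823, 1.25e-08, 5.04e-06, 0.106 and 4.69e-06; with the batch as a block, the value for PI103+oxozeaenol was called, at 0.30 (adjusted p = 0.0227). Without the 3 libraries that stood apart, NEU1 was at 1.42 with PD0325901, 1.02 with oxozeaenol and 0.73 for PI103+PD0325901. LIPA, the lysosomal acid lipase that frees cholesterol and fatty acids from lipoprotein lipids, had a like order, with -0.11, 1.19, 1.20, 0.58 and 0.93 and no call with PI103 (adjusted p = 0.514). NAGLU, an enzyme of heparan sulfate breakdown, gave 0.13, 0.67, 0.47, 0.44 and 0.40, with no call with PI103 (adjusted p = 0.186).

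ASAH1, the acid ceramidase, belonged to the enzymes with the smallest mean change. ASAH1 read 115, 114, 130.3 and 116 CPM in control, 137, 122, 129 and 114 with PI103, 138, 139, 156 and 154 with PD0325901 and 164, 175, 178 and 172 with oxozeaenol. In the combinations ASAH1 was 158, 154, 161 and 149 CPM for PI103+oxozeaenol and 131, 146, 145 and 140.1 for PI103+PD0325901. Control replicate 3 was above the other 3 control libraries and inside the PI103 range, while every PD0325901 and oxozeaenol library exceeded it. The log2 fold changes were 0.08, 0.30, 0.53, 0.39 and 0.24, and the adjusted p with PI103 was 0.377.

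GLA (chrX:101397803-101407925), alpha-galactosidase A, was the enzyme that did not follow the others. GLA stood at 29.6, 25.96, 28.4 and 27.3 CPM in control, 29.1, 28.6, 26.8 and 25.9 with PI103, 27.6, 28.9, 35.9 and 32.4 with PD0325901 and 37.01, 34.5, 37.9 and 35.3 with oxozeaenol. In the combinations GLA read 28.2, 30.6, 30.9 and 27.9 CPM for PI103+oxozeaenol and 21.9, 19.7, 25.9 and 24.99 for PI103+PD0325901. Oxozeaenol libraries were all above control, and those of PI103+PD0325901 were all below it. GLA rose with oxozeaenol, at 0.38 ± 0.0886 (adjusted p = 0.000907), and fell for PI103+PD0325901, at -0.27 ± 0.0889 (adjusted p = 0.0101). That fall was not called without replicate 2 of the combination, at -0.20 (adjusted p = 0.0561). The differences for PI103, PD0325901 and PI103+oxozeaenol were -0.01, 0.17 and 0.08, with adjusted p-values of 0.923, 0.111 and 0.472.

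Of the 6 membrane proteins, 3 were called higher and 0 lower with PI103, 4 and 0 with PD0325901, 4 and 1 with oxozeaenol, and 4 and 0 in both combinations. The share called in either direction was 50% with PI103, near the 51.4% of all genes tested, 66.7% with PD0325901 and in both combinations (58.6%, 55.6% and 64.8% of all genes), and 83.3% with oxozeaenol (51.9%). LAMP1 and LAMP2 are the heavily glycosylated proteins that line the lysosomal membrane, SCARB2 carries glucocerebrosidase to lysosomes, CD63 is a tetraspanin of late endosomes, NPC1 exports cholesterol and MCOLN1 is a cation channel. SCARB2 and CD63 had the highest mean change by the naming rule, and NPC1 and LAMP2 the lowest among those called in at least 1 treatment.

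SCARB2 stood at 296, 266, 342 and 264 CPM in control, 418, 389, 431 and 362 with PI103, 435, 585, 421 and 391 with PD0325901 and 369.9, 349.6, 342 and 339.8 with oxozeaenol. In the combinations SCARB2 measured 415, 400.2, 418 and 382 CPM for PI103+oxozeaenol and 537, 575, 512 and 505 for PI103+PD0325901. The oxozeaenol range overlapped control and the other treatments did not. SCARB2 rose in all 5, by 0.45, 0.65, 0.26, 0.47 and 0.87, and with oxozeaenol the call was narrow (adjusted p = 0.0342). It was not called with oxozeaenol when control replicate 1, 2 or 4 or oxozeaenol replicate 1 or 2 was left out, at 0.28, 0.22, 0.22, 0.23 and 0.27.

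CD63 was 524, 589, 497 and 652 CPM in control, 651, 602, 624 and 699 with PI103, 761, 795, 877 and 1047 with PD0325901 and 707, 899, 961 and 826 with oxozeaenol. In the combinations CD63 was 759, 709, 761 and 782 CPM for PI103+oxozeaenol and 665, 1014, 781 and 849 for PI103+PD0325901. The PI103 libraries overlapped control, and all libraries of the other 4 treatments lay above it. CD63 rose by 0.62 with PD0325901, 0.58 with oxozeaenol, 0.41 for PI103+oxozeaenol and 0.55 for PI103+PD0325901, while PI103 gave 0.19 ± 0.120 (adjusted p = 0.198).

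LAMP2 stood at 166, 187, 197 and 174 CPM in control, 235, 209.5, 245 and 221 with PI103, 219, 261, 234 and 251 with PD0325901 and 235, 257, 270.3 and 252 with oxozeaenol. In the combinations LAMP2 was 247, 253, 255 and 252 CPM for PI103+oxozeaenol and 232, 277, 254 and 271 for PI103+PD0325901. Every treated library exceeded every control library. The rises were 0.33, 0.41, 0.49, 0.48 and 0.51, with adjusted p-values of 0.00109, 7.58e-05, 1.31e-05, 1.45e-05 and 3.24e-06. LAMP1 rose by 0.50, 0.43, 0.20, 0.50 and 0.70. Its rise with oxozeaenol (adjusted p = 0.0428) was not called without control replicate 2, 3 or 4, at 0.18, 0.21 and 0.19, nor without oxozeaenol replicate 1 or 3, at 0.13 and 0.21.

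NPC1 and MCOLN1 differed from the other 4. NPC1 stood at 91.5, 97.4, 104 and 95.4 CPM in control, 86.4, 92.2, 89.02 and 85.9 with PI103, 92.5, 112, 86.97 and 80.9 with PD0325901 and 95.1, 74.6, 79.5 and 73.9 with oxozeaenol. In the combinations NPC1 was 85.1, 84.8, 83.3 and 81.7 CPM for PI103+oxozeaenol and 93.1, 91.5, 80.1 and 73.7 for PI103+PD0325901. All groups overlapped control except PI103+oxozeaenol, whose 4 libraries were below it. The differences were -0.14, -0.06, -0.27, -0.21 and -0.20, with adjusted p-values of 0.237, 0.607, 0.0209, 0.0564 and 0.0672, so only the oxozeaenol value was called, and that call did not hold without control replicate 3 (-0.23) or oxozeaenol replicate 2 or 4 (-0.22 and -0.23). With the batch as a block, both combinations were called lower too, at -0.22 and -0.21 (adjusted p = 0.0304 and 0.0340). MCOLN1, whose promoter holds the CLEAR element, was low, at 7.66 ± 1.103 CPM (SD, n = 4) in control, and gave 0.13, -0.26, -0.21, 0.09 and 0.06 with no call, although PD0325901 reached an adjusted p of 0.0486 with the batch as a block.

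Among the proton pump genes, PI103 had the most called lower and PD0325901 had 0. Of the pump's 12 subunits, 3 were called higher and 5 lower with PI103, 6 and 0 with PD0325901, 5 and 1 with oxozeaenol, 3 and 2 for PI103+oxozeaenol, and 5 and 2 for PI103+PD0325901. The shares called in either direction were 66.7%, 50%, 50%, 41.7% and 58.3%, against 51.4%, 58.6%, 51.9%, 55.6% and 64.8% of all genes tested, so only with PI103 was the pump share above that of the whole table. The shares called higher were 25%, 50%, 41.7%, 25% and 41.7%, against 26.2%, 28.7%, 25.7%, 27.7% and 32.2%. The median log2 fold changes were -0.06, 0.19, 0.16, -0.02 and 0.10. The V0 subunits ATP6V0E1 and ATP6V0D1 had the highest mean change, and ATP6V1A, the catalytic subunit that hydrolyses ATP, and ATP6V0B of the proteolipid ring had the lowest.

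ATP6V0E1 stood at 99.3, 102, 88.2 and 102 CPM in control, 99.5, 94.5, 95.4 and 105 with PI103, 137, 157, 161 and 157 with PD0325901 and 134, 155, 172 and 200.1 with oxozeaenol. In the combinations ATP6V0E1 measured 122, 120.2, 124 and 149.6 CPM for PI103+oxozeaenol and 115, 162, 129 and 148 for PI103+PD0325901. PI103 libraries lay in and around the control range, and every library of the other 4 treatments lay above it. ATP6V0E1 (chr5:172983757-173035445) rose by 0.64 with PD0325901 (adjusted p = 1.53e-05), 0.76 with oxozeaenol (2.32e-06), 0.40 for PI103+oxozeaenol (0.00295) and 0.50 for PI103+PD0325901 (0.000253), and PI103 gave 0.01 ± 0.109 (adjusted p = 0.934).

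ATP6V0D1 stood at 50.6, 39.7, 44.3 and 44.4 CPM in control, 50.9, 59.1, 51.9 and 42.6 with PI103, 71.01, 90.1, 81.7 and 65.6 with PD0325901 and 66.6, 64.2, 63.01 and 55.6 with oxozeaenol. In the combinations ATP6V0D1 was 57.1, 59.4, 54.7 and 51.997 CPM for PI103+oxozeaenol and 66.8, 78.6, 60.7 and 62.2 for PI103+PD0325901. Its PI103 range again overlapped control and no other treatment's did. ATP6V0D1 (chr16:67438019-67481237), the V0 subunit that joins the ring to the central stalk, rose by 0.78, 0.48, 0.32 and 0.58 in the other 4 treatments, and PI103 gave 0.19 ± 0.107 (adjusted p = 0.136). The call for PI103+oxozeaenol was lost without control replicate 2, at 0.27 (adjusted p = 0.0555).

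ATP6V1A stood at 171, 148, 183 and 145 CPM in control, 117, 104, 114 and 85.5 with PI103, 149, 183, 143 and 131 with PD0325901 and 145, 136, 129 and 112 with oxozeaenol. In the combinations ATP6V1A read 109.6, 125, 109.8 and 91.2 CPM for PI103+oxozeaenol and 109, 129, 116 and 108 for PI103+PD0325901. All PI103 and combination libraries were below all control libraries, and the PD0325901 and oxozeaenol libraries overlapped them. ATP6V1A (chr3:113747019-113812056) fell by 0.62 with PI103 (adjusted p = 8.31e-05), by 0.57 for PI103+oxozeaenol (0.000187) and by 0.48 for PI103+PD0325901 (0.000746). PD0325901 gave -0.09 ± 0.116 (adjusted p = 0.506). With oxozeaenol it was -0.31 ± 0.116 (adjusted p = 0.0299), a call lost without control replicate 1 or 3 (-0.27 and -0.24) or oxozeaenol replicate 3 or 4 (-0.30 and -0.24).

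ATP6V0B read 84.004, 86.96, 72.9 and 104 CPM in control, 62.03, 62.4, 59.1 and 62.3 with PI103, 90.2, 80.6, 105 and 106 with PD0325901 and 92.2, 104, 105 and 99.8 with oxozeaenol. In the combinations ATP6V0B was 78.3, 79.02, 76.2 and 81.3 CPM for PI103+oxozeaenol and 61.1, 78.3, 67.8 and 72.1 for PI103+PD0325901. PI103 libraries were tightly grouped below control, and all other treatments overlapped it. ATP6V0B fell by 0.50 with PI103 (adjusted p = 0.000108) and by 0.32 for PI103+PD0325901 (0.00568). The other 3 differences were 0.13, 0.20 and -0.14, not called, although oxozeaenol reached 0.21 (adjusted p = 0.0486) with the batch as a block.

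ATP6V1D and ATP6V1E1, subunits of the central and peripheral stalks of V1, were lower with PI103 and higher with PD0325901 and oxozeaenol. ATP6V1D stood at 127, 145, 124 and 145 CPM in control, 112, 100.5, 109.97 and 108 with PI103, 136, 158, 174 and 168 with PD0325901 and 139.95, 167, 179.9 and 164 with oxozeaenol. In the combinations ATP6V1D was 133, 130.2, 131 and 135 CPM for PI103+oxozeaenol and 122, 176, 136 and 150.2 for PI103+PD0325901. The PI103 libraries were below all control libraries, while the other groups overlapped control. The differences were -0.33, 0.23, 0.27, -0.03 and 0.11, with adjusted p-values of 0.00672, 0.0429, 0.0240, 0.810 and 0.331. The PD0325901 call did not hold without control replicate 1 or 3 (0.20 and 0.22) or PD0325901 replicate 3 or 4 (0.19 and 0.21). The oxozeaenol call did not hold without control replicate 1 or 3 (0.24 and 0.23) or oxozeaenol replicate 3 (0.22).

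ATP6V1E1 stood at 137, 147, 127 and 158 CPM in control, 122, 117, 118 and 124 with PI103, 156, 159, 180.4 and 189.5 with PD0325901 and 164, 184, 199.8 and 186 with oxozeaenol. In the combinations ATP6V1E1 measured 148, 143, 143 and 145 CPM for PI103+oxozeaenol and 129.6, 170.04, 148 and 157 for PI103+PD0325901. PI103 libraries lay below and oxozeaenol libraries above the control range. The differences were -0.24, 0.27, 0.37, 0.03 and 0.09, with adjusted p-values of 0.0212, 0.00994, 0.000979, 0.793 and 0.378. The PI103 call did not hold without control replicate 2 or 4 (-0.23 and -0.19) or PI103 replicate 2 (-0.23).

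Of the remaining pump genes, ATP6AP1 and ATP6V0A1 had the largest changes. ATP6AP1, an accessory subunit, was the only pump gene higher in all 5, by 0.26, 0.61, 0.30, 0.31 and 0.49, and its call was lost with PI103 without control replicate 3 (0.24) or PI103 replicate 2 (0.23), and with oxozeaenol without its replicate 1 (0.22). ATP6V0A1, a V0 subunit that carries protons past the ring, rose with PI103, PD0325901 and their combination, by 0.48, 0.45 and 0.50. ATP6V1C1 gave 0.22, 0.12, -0.05, 0.08 and 0.20 and ATP6V1H -0.30, 0.03, -0.09, -0.24 and -0.01. ATP6V0C ran from 90.5 to 105 CPM in group means and ATP6V1B2 from 57.04 to 72.8, with no call against control. With the batch as a block, ATP6V1B2 was lower for PI103+oxozeaenol, at -0.20 (adjusted p = 0.0243). Another annotated gene on the same strand covers 72.1% of the exons of ATP6V0C.

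The autophagy machinery had no common direction, and its largest change was a fall in MAP1LC3B. Of the 12 genes, 3 were called higher and 4 lower with PI103, 3 and 2 with PD0325901, 1 and 8 with oxozeaenol, 1 and 5 for PI103+oxozeaenol, and 6 and 2 for PI103+PD0325901. The shares called, 58.3%, 41.7%, 75%, 50% and 66.7%, lay near or below those of all genes tested (51.4%, 58.6%, 51.9%, 55.6% and 64.8%) except with oxozeaenol. Their median log2 fold changes were 0.03, 0.10, -0.24, -0.13 and 0.28.

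MAP1LC3B (chr16:87391800-87404779) encodes LC3B, the ubiquitin-like protein that is joined to lipid on the growing autophagosome. MAP1LC3B stood at 363, 418, 308 and 449.8 CPM in control, 83.3, 79.4, 81.9 and 82.9 with PI103, 120.1, 116, 117 and 109.9 with PD0325901 and 88.8, 129.8, 96.5 and 91.9 with oxozeaenol. In the combinations MAP1LC3B was 77.6, 83.5, 78.05 and 79.4 CPM for PI103+oxozeaenol and 85.5, 117, 93.5 and 98.2 for PI103+PD0325901. Every treated library was below every control library, and control replicates differed among themselves more than the PI103 replicates did. The log2 fold changes were -2.23 ± 0.117 (adjusted p = 2.96e-13) with PI103, -1.73 ± 0.115 (adjusted p = 3.14e-12) with PD0325901 and -1.92 ± 0.115 (adjusted p = 1.24e-12) with oxozeaenol. For the combinations they were -2.27 ± 0.117 (adjusted p = 6.09e-14) with oxozeaenol and -1.97 ± 0.115 (adjusted p = 2.56e-13) with PD0325901. As ratios to control these were 0.213, 0.301, 0.265, 0.207 and 0.256. A near-identical copy, MAP1LC3B2, had 70 to 512 reads in a library against 3399 to 34277 for MAP1LC3B, so reads shared between them may be counted low.

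The related ubiquitin-like genes did not follow it. GABARAPL1 stood at 37.3, 39.1, 38.3 and 41.1 CPM in control, 65.99, 54.4, 58.1 and 55.4 with PI103, 38.6, 37.2, 36.4 and 35.5 with PD0325901 and 28.6, 32.5, 30.7 and 29.3 with oxozeaenol. In the combinations GABARAPL1 was 47.5, 39.3, 42.6 and 40.8 CPM for PI103+oxozeaenol and 65.02, 57.8, 53.996 and 55.4 for PI103+PD0325901. PI103 and its combination with PD0325901 stood above all control libraries, and oxozeaenol stood below them. GABARAPL1 (chr12:10212805-10223130) rose by 0.59 with PI103 (adjusted p = 8.43e-07) and 0.58 for PI103+PD0325901 (5.3e-07), and fell by 0.36 with oxozeaenol (0.000427). PD0325901 gave -0.08 ± 0.0788 (adjusted p = 0.417) and PI103+oxozeaenol 0.13 ± 0.0787 (adjusted p = 0.170). GABARAPL2 had values of 0.29, 0.24, 0.29, 0.27 and 0.39, but only PI103+PD0325901 was called (adjusted p = 0.0132); that call did not hold without control replicate 1 (0.33) or combination replicate 4 (0.32). With the batch as a block, the other 4 were called too, with adjusted p-values of 0.00568, 0.0241, 0.00877 and 0.00994.

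The WIPI proteins bind a phosphorylated inositol lipid on the membranes from which autophagosomes grow. WIPI1 stood at 9.57, 6.46, 7.55 and 5.77 CPM in control, 5.73, 4.995, 5.95 and 4.44 with PI103, 14.4, 28.1, 19.2 and 14.7 with PD0325901 and 8.53, 9.02, 8.63 and 10.7 with oxozeaenol. In the combinations WIPI1 was 6.82, 6.76, 7.51 and 6.80 CPM for PI103+oxozeaenol and 14.4, 26.997, 15.6 and 14.5 for PI103+PD0325901. PD0325901 and its combination with PI103 stood above control, and in both groups replicate 2 was far above the other 3. WIPI1 (chr17:68421282-68457479) rose by 1.38 with PD0325901 (adjusted p = 3.33e-06) and 1.29 for PI103+PD0325901 (6.62e-06). PI103 gave -0.47 ± 0.207 (adjusted p = 0.0593), which was called with the batch as a block (-0.48, adjusted p = 0.0413), and oxozeaenol gave 0.33 ± 0.205 (adjusted p = 0.182). Without the 3 libraries that stood apart, the values with PD0325901 and for PI103+PD0325901 were 1.13 and 1.02. A gene on the opposite strand, ARSG, covers 28.5% of the exons of WIPI1.

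WIPI2 stood at 66.8, 57.3, 59.3 and 60.3 CPM in control, 107, 112, 102 and 102 with PI103, 84.3, 92.3, 89.7 and 79.7 with PD0325901 and 76.9, 68.8, 70.3 and 66.3 with oxozeaenol. In the combinations WIPI2 read 102, 88.5, 99.2 and 86.4 CPM for PI103+oxozeaenol and 108, 102, 95.6 and 91.5 for PI103+PD0325901. All treatments stood above control except oxozeaenol, whose lowest library overlapped it. WIPI2 (chr7:5190188-5233826) rose in all 5, by 0.80, 0.51, 0.21, 0.63 and 0.70. Its oxozeaenol call (adjusted p = 0.0242) was lost without control replicate 2, 3 or 4 (0.19, 0.20 and 0.21) or oxozeaenol replicate 1 (0.16).

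UVRAG, ATG14 and BECN1 are subunits of the class III PI3 kinase complexes that make that lipid. UVRAG stood at 22.5, 21.8, 24.7 and 23.1 CPM in control, 17.6, 15.6, 18.5 and 14.4 with PI103, 18.8, 17.2, 18.8 and 16.9 with PD0325901 and 19.4, 18.9, 18.4 and 16.4 with oxozeaenol. In the combinations UVRAG was 16.7, 17.8, 18.6 and 16.1 CPM for PI103+oxozeaenol and 16.98, 16.5, 17.3 and 15.4 for PI103+PD0325901. No treated library reached the control range. UVRAG (chr11:75815167-76143195) fell in all 5, with log2 fold changes of -0.48, -0.36, -0.34, -0.42 and -0.48 and adjusted p-values of 3.1e-05, 0.000569, 0.00158, 0.000157 and 1.93e-05. ATG14 read 46.98, 45.1, 44.6 and 46.8 CPM in control, 61.9, 48.8, 51.2 and 52.2 with PI103, 54.2, 51.2, 39.7 and 48.5 with PD0325901 and 39.8, 36.2, 33.7 and 42.1 with oxozeaenol. In the combinations ATG14 read 55.6, 40.6, 40.9 and 49.95 CPM for PI103+oxozeaenol and 62.5, 63.5, 51.2 and 58.6 for PI103+PD0325901. Oxozeaenol was wholly below control, and PI103 and its combination with PD0325901 were wholly above it. ATG14 differed by 0.22, 0.08, -0.27, 0.03 and 0.36, with adjusted p-values of 0.0825, 0.555, 0.0363, 0.837 and 0.00446. With the batch as a block, PI103 was called as well (adjusted p = 0.0223). The oxozeaenol call did not hold without control replicate 1, 2 or 4 (-0.26, -0.28 and -0.26) or oxozeaenol replicate 2 or 3 (-0.25 and -0.22). BECN1 gave -0.21, 0.12, -0.20, -0.21 and 0.08, called lower with PI103, oxozeaenol and their combination. These BECN1 calls did not hold without PI103 replicate 2 or 4, without control replicate 1 or 3 or oxozeaenol replicate 1 or 4, and without combination replicate 1, with values from -0.20 to -0.18.

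NBR1 and SQSTM1 are receptors that bring ubiquitinated cargo to autophagosomes. NBR1 stood at 70.5, 63.7, 78.2 and 62.1 CPM in control, 95.3, 91.6, 99.7 and 85.1 with PI103, 75.4, 107, 71.6 and 65.8 with PD0325901 and 51.4, 50.4, 49.6 and 52.6 with oxozeaenol. In the combinations NBR1 was 68.6, 64.2, 68.1 and 60.6 CPM for PI103+oxozeaenol and 97.1, 100.2, 93.1 and 79.1 for PI103+PD0325901. The oxozeaenol libraries were below every control library, and those of PI103 and of PI103+PD0325901 were above. NBR1 (chr17:43170481-43211689) rose by 0.44 with PI103 (adjusted p = 0.00172) and 0.43 for PI103+PD0325901 (0.00141) and fell by 0.43 with oxozeaenol (0.00219). SQSTM1 rose with PD0325901, by 0.43 (adjusted p = 0.000210), and was otherwise between -0.19 and 0.19 with no call. Both combinations passed for SQSTM1 with the batch as a block, at -0.19 and 0.18 (adjusted p = 0.0361 and 0.0391). The gene MRNIP on the opposite strand covers 39.8% of the exons of SQSTM1.

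ULK1, the kinase that starts autophagy, fell with oxozeaenol by 0.66 (adjusted p = 9.36e-06), for PI103+oxozeaenol by 0.43 (0.000962) and with PI103 by 0.32 (0.0121). The PI103 value lost its call without control replicate 4 (-0.26). For PI103+PD0325901 it was 0.01 ± 0.103 (adjusted p = 0.956). ATG9A, the membrane protein carried by seed vesicles, fell with oxozeaenol and with PI103 and oxozeaenol, by 0.22 and 0.21, and an overlapping gene covers 43.5% of its exons. Neither ATG9A call held without control replicate 1 (both -0.18), nor the first without oxozeaenol replicate 3 (-0.19) or the second without combination replicate 4 (-0.17).

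None of the MiT/TFE transcription factor genes was called higher with PI103. Of the 4 tested genes of this group, 0 were called higher and 2 lower with PI103, 2 and 1 with PD0325901, 1 and 2 with oxozeaenol, 1 and 2 for PI103+oxozeaenol, and 2 and 1 for PI103+PD0325901. With PI103, 2 of 4 is near the 51.4% of all genes called, and in the other treatments 3 of 4 were called, where 58.6%, 51.9%, 55.6% and 64.8% of all genes were, and nothing is read from counts over 4 genes. In control TFE3 was at 19.6 ± 1.85 CPM per kilobase of exon (SD, n = 4), far above MITF at 1.51 ± 0.143 and TFEB at 1.02 ± 0.111. TFE3 (chrX:49028731-49043486) was lower in all 5 treatments. TFE3 stood at 65.7, 68.97, 59.3 and 74.4 CPM in control, 40.9, 42.8, 37.6 and 40.8 with PI103, 50.4, 47.9, 43.5 and 40.3 with PD0325901 and 42.9, 41.9, 35.1 and 35.5 with oxozeaenol. In the combinations TFE3 was 38.9, 39.9, 37.6 and 37.1 CPM for PI103+oxozeaenol and 46.1, 50.5, 40.4 and 39.7 for PI103+PD0325901. No treated library reached the control range. Its log2 fold changes were -0.73, -0.56, -0.79, -0.81 and -0.60, with adjusted p-values of 3.78e-07, 1.09e-05, 1.14e-07, 5.75e-08 and 2.97e-06.

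TFEB stood at 4.57, 4.25, 4.20 and 5.28 CPM in control, 2.52, 3.54, 2.59 and 2.99 with PI103, 4.44, 6.35, 4.93 and 4.62 with PD0325901 and 3.03, 3.997, 3.46 and 3.55 with oxozeaenol. In the combinations TFEB was 3.52, 3.54, 2.81 and 3.90 CPM for PI103+oxozeaenol and 3.38, 5.09, 3.65 and 3.54 for PI103+PD0325901. The PI103, oxozeaenol and PI103+oxozeaenol libraries lay below control, and replicate 2 of PD0325901 and of PI103+PD0325901 were the highest of their groups. TFEB (chr6:41683978-41736259) fell by 0.65 with PI103 (adjusted p = 0.00105), 0.38 with oxozeaenol (0.0429) and 0.41 for PI103+oxozeaenol (0.0270). PD0325901 gave 0.15 ± 0.153 (adjusted p = 0.408). The oxozeaenol call did not hold without control replicate 1 or 4 (-0.38 and -0.31) or oxozeaenol replicate 1, 3 or 4 (-0.32, -0.38 and -0.39), and that of PI103+oxozeaenol without control replicate 4 (-0.33) or its own replicate 3 (-0.32). For PI103+PD0325901 the value was -0.23 ± 0.154 (adjusted p = 0.200), and without the 3 libraries that stood apart it was -0.38 (adjusted p = 0.0233).

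MITF stood at 8.62, 9.59, 10.3 and 8.45 CPM in control, 9.13, 7.51, 9.38 and 5.65 with PI103, 19.2, 30.05, 17.3 and 14.8 with PD0325901 and 7.90, 8.12, 6.50 and 6.35 with oxozeaenol. In the combinations MITF was 10.7, 10.3, 8.70 and 7.59 CPM for PI103+oxozeaenol and 16.4, 23.1, 13.8 and 14.97 for PI103+PD0325901. All libraries with PD0325901, alone or with PI103, were above control, all oxozeaenol libraries were below it, and replicate 2 was the highest in both PD0325901 groups. MITF (chr3:69739435-69968337) rose by 1.14 with PD0325901 (adjusted p = 1.81e-05) and 0.89 for PI103+PD0325901 (0.000268), or by 0.89 and 0.71 without the 3 libraries that stood apart. PI103 gave -0.22 ± 0.193 (adjusted p = 0.346) and oxozeaenol -0.35 ± 0.194 (adjusted p = 0.132), the latter called with the batch as a block (-0.37, adjusted p = 0.0336).

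FLCN (chr17:17212212-17237139), folliculin, acts on the Rag GTPases that bring mTORC1 and TFEB to the lysosome. FLCN stood at 38.7, 31.9, 28.4 and 34.2 CPM in control, 33.2, 34.4, 33.3 and 37.4 with PI103, 43.8, 44.95, 39.3 and 43.3 with PD0325901 and 44.6, 45.997, 41.4 and 55.6 with oxozeaenol. In the combinations FLCN was 43.2, 40.5, 38.3 and 43.7 CPM for PI103+oxozeaenol and 46.1, 44.8, 37.6 and 42.3 for PI103+PD0325901. PD0325901 and oxozeaenol libraries were above all control libraries, PI103 libraries lay within the control range, and both combinations overlapped it. FLCN rose by 0.36 with PD0325901, 0.49 with oxozeaenol, 0.32 for PI103+oxozeaenol and 0.36 for PI103+PD0325901, with adjusted p-values of 0.00192, 0.000111, 0.00650 and 0.00185, and PI103 gave 0.05 ± 0.0951 (adjusted p = 0.660). RRAGD, the Rag GTPase gene, had 2 reads in 1 oxozeaenol library and 1 read in 1 library of PI103+PD0325901, and was not tested.

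**Figure D4:**
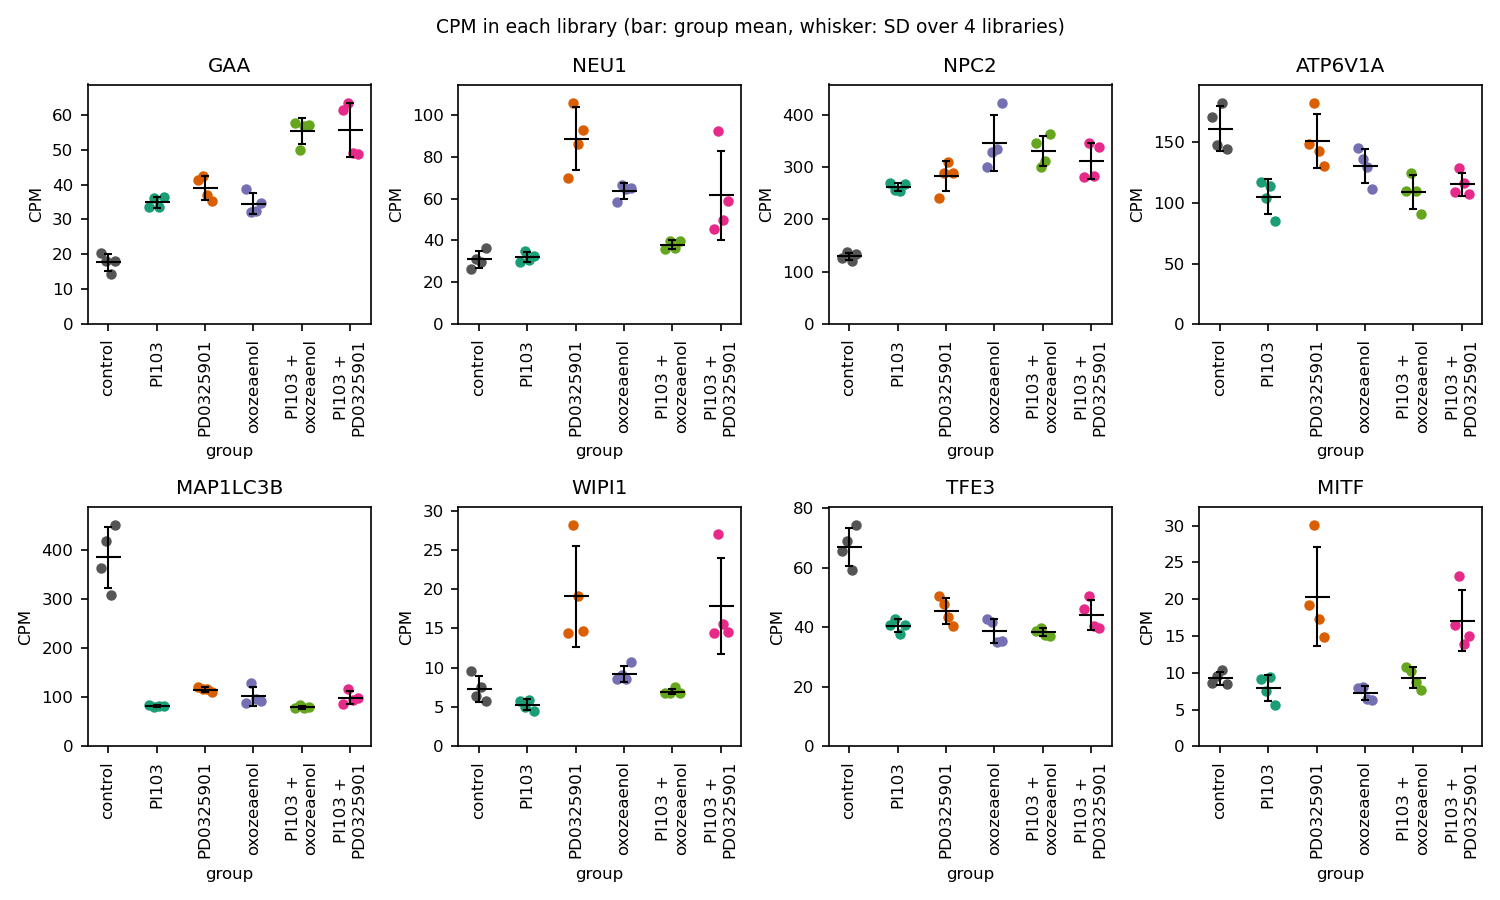
CPM (vertical axis, from 0) in every library (points) for 8 genes in the 6 groups; bars are group means and whiskers SDs over 4 libraries. GAA and NPC2 are above control in all treatments, NEU1, WIPI1 and MITF are high with PD0325901, ATP6V1A is low with PI103, and MAP1LC3B and TFE3 are below control in all treated libraries.

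Between genes, levels were compared per kilobase of exon in control. CD63 was the highest, at 245 ± 30.1 CPM per kb (SD, n = 4), followed by PSAP at 217 ± 17.9, which overlapped it within the SDs, then MAP1LC3B at 128 ± 20.7 and LAMP1 at 125 ± 6.53, which did not differ beyond their spread. Among the pump genes ATP6V1E1 led with 101 ± 9.34, and among the enzymes after PSAP it was CTSD with 93.3 ± 6.21. GAA was at 4.84 ± 0.678, WIPI1 at 3.88 ± 0.877 and MCOLN1 at 3.68 ± 0.530, and below all of these were MITF and TFEB. In the PI103 libraries MAP1LC3B was at 27.1 ± 0.583 CPM per kb.

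The single agents were also compared with each other. PI103 differed from PD0325901 in 26 of the 49 genes, 6 higher and 20 lower with PI103 (44.5% of all genes tested, 21.7% higher and 22.9% lower), and 8 of the 12 pump genes were among the lower ones. The 6 genes higher with PI103 were GABARAPL1 (0.66), GUSB (0.57), MCOLN1 (0.39), TPP1 (0.38), CTSB (0.33) and WIPI2 (0.29). MCOLN1 was not called without PD0325901 replicate 2 (0.30). The largest gaps in the other direction were in WIPI1, at -1.85 ± 0.209 (adjusted p = 1.28e-07), NEU1, at -1.47 ± 0.156 (adjusted p = 4.52e-08), MITF, at -1.36 ± 0.193 (adjusted p = 3.7e-06), and LIPA, at -1.30 ± 0.133 (adjusted p = 1.59e-08).

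PI103 and oxozeaenol differed in 32 of the 49 genes, 16 in each direction (43.1% of all genes tested, 20.6% higher and 22.5% lower). GABARAPL1 (0.95), NBR1 (0.87), CTSB (0.66), WIPI2 (0.58) and GUSB (0.50) were the largest of those higher with PI103, and 6 of the 12 autophagy genes were higher with PI103 and 2 lower. LIPA (-1.31), NEU1 (-0.99), WIPI1 (-0.81), ATP6V0E1 (-0.75) and ATP6V0B (-0.71) were the largest of those lower.

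Oxozeaenol and PD0325901 differed in 22 genes (28.5% of all genes tested, 13.4% higher and 15.1% lower). NPC2 and ASAH1 were higher with oxozeaenol, by 0.29 and 0.23, and 20 genes were lower, 9 of them among the 12 autophagy genes. MITF (-1.49), WIPI1 (-1.05), NBR1 (-0.65), TFEB (-0.53) and ULK1 (-0.53) had the largest differences. Without PD0325901 replicate 2, TFEB was not called (-0.43), nor were NPC2 (0.28) and ASAH1 (0.18). NPC2 was also not called without PD0325901 replicate 1 (0.20) or oxozeaenol replicate 4 (0.18), nor ASAH1 without PD0325901 replicate 1 (0.18) or oxozeaenol replicate 3 (0.21). The count was 13 without PD0325901 replicate 2, and 12 without the 3 libraries that stood apart.

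The combinations, with each agent at 50% of its dose, were set against each of their single agents at full dose and against the mean of both on the log2 scale. PI103+oxozeaenol differed from PI103 in 15 of the 49 genes, 9 higher and 6 lower (18.3% of all genes tested, 9.39% higher and 8.92% lower), and from oxozeaenol in 18, 10 higher and 8 lower (14.9%, 7.59% and 7.28%). Leaving out replicate 1 of the combination or oxozeaenol replicate 3 brought the second count to 10 and 11. LIPA lay between its agents, 0.68 above PI103 and -0.62 from oxozeaenol, and so did GABARAPL1, -0.46 from PI103 and 0.49 above oxozeaenol. GAA was the one gene of the 49 called the same way against both agents, as were 1.04% of all genes tested (0.760% higher, 0.280% lower): 0.66 ± 0.102 (adjusted p = 3.31e-05) against PI103 and 0.68 ± 0.102 (adjusted p = 6.78e-05) against oxozeaenol.

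Against the mean of its agents, PI103+oxozeaenol had 4 genes called, all enzymes and all higher (3.98% of all genes tested, 2.88% higher and 1.10% lower). GAA differed by 0.67 ± 0.0859 (adjusted p = 1.29e-05), TPP1 by 0.36 ± 0.0966 (adjusted p = 0.0308), GUSB by 0.30 ± 0.0636 (adjusted p = 0.00674) and HEXA by 0.28 ± 0.0750 (adjusted p = 0.0330). With the batch as a block, 8 of the 49 were called. The share of all genes called in that fit is not given here, so the rise is not read as particular to these genes. Without replicate 1 of the combination TPP1, GUSB and HEXA were at 0.31, 0.26 and 0.21. The count was 1, GAA, without replicate 1 of the combination and 2 without its replicate 3, PI103 replicate 2, 3 or 4, or oxozeaenol replicate 3, and GAA was called in all 12 of these fits.

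PI103+PD0325901 differed from PI103 in 22 of the 49 genes, 21 higher and 1 lower (38.7% of all genes tested, 18.8% higher and 19.9% lower), and from PD0325901 in 14, 8 higher and 6 lower (18.1%, 8.06% and 10.0%), which became 7 without replicate 1 of the combination. Against PI103 the largest differences were in WIPI1, at 1.76 ± 0.208 (adjusted p = 5.21e-07), MITF, at 1.11 ± 0.193 (adjusted p = 8.11e-05), LIPA, at 1.04 ± 0.132 (adjusted p = 9.25e-07), and NEU1, at 0.95 ± 0.154 (adjusted p = 3.85e-05). Against PD0325901 they were in GABARAPL1, at 0.65 ± 0.0789 (adjusted p = 3.78e-06), TPP1, at 0.59 ± 0.113 (adjusted p = 0.000806), NEU1, at -0.52 ± 0.153 (adjusted p = 0.0195), and GAA, at 0.51 ± 0.101 (adjusted p = 0.00107). NEU1 was not called without PD0325901 replicate 2 (-0.44) or replicate 1 or 3 of the combination (-0.41 and -0.43).

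Against the mean of its agents, PI103+PD0325901 had 10 genes called higher and 2 lower (22.0% of all genes tested, 10.8% higher and 11.1% lower). WIPI1, at 0.83 ± 0.169 (adjusted p = 0.00131), and GAA, at 0.59 ± 0.0859 (adjusted p = 2.61e-05), had the largest differences, followed by TPP1 (0.40), CTSD (0.40), LIPA (0.39), GABARAPL1 (0.32), SCARB2 (0.31), CTSA (0.30), HEXA (0.25) and LAMP1 (0.24). GLA was lower, at -0.35 ± 0.0780 (adjusted p = 0.00271), and so was ATP6V1B2, at -0.22 ± 0.0805 (adjusted p = 0.0469), the latter called in only 2 of 12 fits that left out 1 library. Leaving out replicate 2 of the combination brought the count to 7, where LIPA, SCARB2, HEXA, LAMP1 and ATP6V1B2 were not called, at 0.26, 0.27, 0.17, 0.21 and -0.24. LAMP1 was also not called without replicate 1 (0.19).

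For PI103+PD0325901, 4 of the 49 genes were called the same way against both agents, 3 higher and 1 lower, as were 4.52% of all genes tested (2.14% higher, 2.39% lower). GAA was 0.67 above PI103 and 0.51 above PD0325901, CTSD 0.50 and 0.30, and CTSA 0.30 and 0.31. GLA was lower than both, at -0.26 and -0.43. The comparison of CTSD with PD0325901 was near the threshold (adjusted p = 0.0488), was not called with RLE scaling (adjusted p = 0.0534), and was lost without PD0325901 replicate 1, 3 or 4 (0.27, 0.30 and 0.23) or combination replicate 1 or 2 (0.25 and 0.20). That of CTSA with PD0325901 was lost without PD0325901 replicate 1 or 4 (0.29 and 0.25) or combination replicate 1 or 2 (0.28 and 0.25). That of GLA with PI103 was lost without PI103 replicate 1 or 2 (-0.23 and -0.24) or combination replicate 1 or 2 (-0.24 and -0.19). Those of GAA were called in every fit that left out 1 library.

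**Figure D5:**
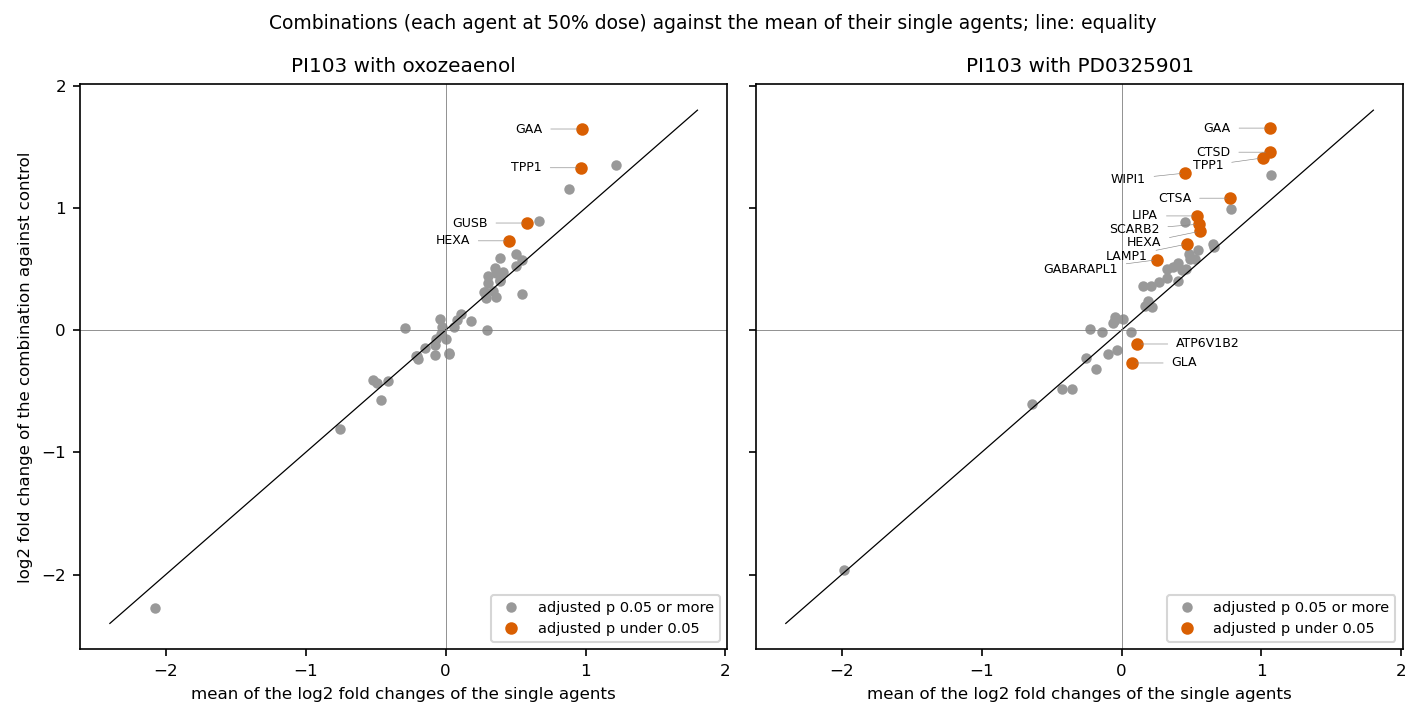
Log2 fold change of each combination against control (vertical axis) against the mean of the log2 fold changes of its 2 single agents (horizontal axis), 1 point per tested gene; the line marks equality, and orange points, named, had an adjusted p under 0.05 for the difference. Most points follow the line, GAA is above it in both panels, and GLA and ATP6V1B2 are below it for PI103+PD0325901.

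A wider list of 115 other genes of the pathway, of which 108 were tested, was read beside the 52. In the 5 treatments, in the order above, 42, 57, 48, 46 and 55 of the 108 were called higher and 18, 15, 18, 22 and 24 lower. That is 55.6%, 66.7%, 61.1%, 63% and 73.1% called, against 51.4%, 58.6%, 51.9%, 55.6% and 64.8% of all genes tested, a small excess with PI103. The shares of the 108 called higher were 38.9%, 52.8%, 44.4%, 42.6% and 50.9%, where 26.2%, 28.7%, 25.7%, 27.7% and 32.2% of all genes were. Of the 27 other enzymes, 16, 20, 19, 19 and 21 were higher and 3, 1, 2, 4 and 4 lower. Of the 17 other membrane proteins, 10, 12, 10, 10 and 12 were higher and 2, 3, 3, 2 and 3 lower, and of the 9 other pump genes, 2, 6, 5, 5 and 5 were higher and 1, 1, 0, 2 and 2 lower. The 34 other autophagy genes were divided, with 7, 9, 3, 4 and 10 higher and 10, 7, 11, 11 and 11 lower, and their shares called (50%, 47.1%, 41.2%, 44.1% and 61.8%) were each below that of the whole table. Of 21 other nutrient-sensing genes, 7, 10, 11, 8 and 7 were higher and 2, 3, 2, 3 and 4 lower, and the shares called (42.9%, 61.9%, 61.9%, 52.4% and 52.4%) lay above and below those of the whole table.

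CTSO, a cysteine protease, had the highest mean change of the other enzymes called alike in all 5, from 0.902 ± 0.129 CPM (SD, n = 4) in control to 12.6 ± 3.01 for PI103+PD0325901, with log2 fold changes of 2.11, 2.88, 2.34, 3.04 and 3.79. Among membrane proteins SLC17A5, the sialic acid exporter, was the highest with 0.70, 0.67, 0.81, 1.11 and 1.06, and TMEM192 the lowest with -0.76, -0.70, -0.40, -0.65 and -0.93. Of the autophagy genes, VAMP8, a SNARE for fusion of autophagosomes with lysosomes, rose by 0.61, 0.82, 0.87, 0.62 and 0.90, and the cargo receptor CALCOCO2 was lower throughout, at -1.53, -0.84, -1.27, -1.76 and -1.38. CALCOCO2 went from 156 ± 8.71 CPM in control to 53.9 ± 4.38 with PI103. In nutrient sensing, TSC1 of the complex that restrains mTORC1 rose by 0.76, 0.52, 0.36, 0.56 and 0.76, and SESN2, a leucine sensor and target of the stress factor ATF4, was at -3.26, -1.79, -2.11, -3.29 and -3.31, going from 152 ± 24.3 CPM in control to 15.8 ± 1.41 with PI103.

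The E-box matches were last set beside the changes. Of the 10 genes with CACGTG in the promoter window, 4 were higher in all 5 treatments (CTSA, CTSD, GAA and LAMP1) and 0 were lower in all 5. Over the whole table, 11.5% of the genes tested were higher in all 5 and 13.5% lower. Of the 10, 7 were called higher at least once and lower in none, while ATP6V0B was called lower in 2 treatments and ATG14 in 1. Of the 27 tested genes with a RefSeq window and no match, 7 were higher in all 5 and 2 were lower. Of those 27, 14 were called higher at least once and lower in none. That pattern was shown by 40.8% of all genes tested. The median over genes of the mean log2 fold change was 0.47 with a match and 0.17 without. The genes with and without a match differ in role, as most with a match are enzymes (NEU1, CTSD, GAA and CTSA) or membrane proteins (CD63, LAMP1 and MCOLN1). The part of role in this difference was not tested. The 2 promoters with the CLEAR element belonged to GAA, one of the genes that rose most, and MCOLN1, called in none. No test was made, and the groups of genes are small.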

How the data were processed

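Per the labels' protocols, stranded mRNA libraries were made from AGS cells in 6 groups of 4. The table deposited by the authors gives raw counts of reads, as whole numbers, for each gene symbol, on genome build GRCh38 per the submitters' processing notes. The aligner, counter and annotation are not given in the sources used here. Closing tallies of unassigned reads were left out (4.24% to 8.57% of all reads tallied in a library lay in no gene, 1.57% to 2.01% were ambiguous and 4.64% to 6.06% not unique).

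Groups came from the sample titles, since the treatment field numbers the compound names upwards. Counts were analysed in R 4.3.3 with edgeR 4.0.16 (TMM, filterByExpr, robust glmQLFit, 1 coefficient per group, all 24 libraries), over 14 contrasts, two-sided, and the SE is the log2 fold change divided by the root of the F statistic. The edgeR procedure was run on simulated data with a common dispersion for all genes and few changed genes, in a single group. Those data lack the wide changes and the batches of the real data, so they do not vouch for the calls given here. Alternatives were DESeq2 1.42.0, RLE scaling, no filter, fits of only the libraries compared, leaving out each library, and the batch as a block. The labels name the replicate number as the batch, so it pairs the samples. Across 60 same-number pairs of libraries, deviations from the group means correlated at 0.12 on average (28 pairs over 0.1), against -0.039 for 180 other pairs.

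The genes, roles and wider lists were chosen with earlier results of these data known. Per-library values are given for the regulators, for the 2 highest and 2 lowest members of each role by mean change (at least 5 CPM, called at least once), for members called in both directions, and for those beyond both agents of a combination. Motifs were searched in RefSeq windows. Nothing in the labels says that replicates came from separate cultures, so p-values measure only the spread between these libraries, which may be technical.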

Additional observations from a re-analysis of the deposited data

Results flagged for a closer look

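Of 198 sets of 4 libraries examined (a gene described in full, or the mean of a role, in 1 group), 9 had a highest or lowest library whose gap to the nearest other passed Dixon's 95% critical value, and chance gives about 1 in 20. TFEB stood at 5.09 CPM in replicate 2 of PI103+PD0325901 against 3.38 to 3.65 in the other 3. WIPI1 stood at 27.00 CPM in that same library against 14.4 to 15.6, and the pump mean there was 0.28 above control on the log2 scale against 0.04 to 0.08. That library had the highest share of reads in the 52 genes, 0.889%, and its part in these values was not tested.

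ASAH1 was at 130.3 CPM in control replicate 3 against 114 to 116, and GAA at 49.9 CPM in replicate 2 of PI103+oxozeaenol against 56.9 to 57.7. ATP6V0B was at 59.1 CPM in PI103 replicate 3 against 62.03 to 62.4. ATP6V0E1 was at 137 CPM in PD0325901 replicate 1 against 157 to 161, and at 149.6 CPM in replicate 4 of PI103+oxozeaenol against 120.2 to 124. WIPI1 was at 7.51 CPM in replicate 3 of PI103+oxozeaenol against 6.76 to 6.82.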

How the results depend on the processing

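None of the 332 called fold changes of the 49 genes that were followed through the alternatives turned direction. Of the 78 against control that were not called, 21 changed sign when 1 library was left out, 9 of them under another alternative too, and none was called on either side. On the log2 scale all 21 were within 0.08 of 0 in the main fit, and their turned values were within 0.088. No direction is read from them (for example ATG14 for PI103+oxozeaenol, CTSB with oxozeaenol, and GLA, NEU1, FLCN and ATP6V0E1 with PI103). DESeq2 added 2 calls and lost 0, RLE scaling added 0 and lost 3, leaving out the filter added 3 and lost 20, and fitting only the libraries compared added 7 and lost 26. Leaving out the 3 libraries that stood apart together, a choice made after seeing the data, added 8 and lost 29. The block on the batch added 15, given beside their genes, and changed no other call printed; for PI103+oxozeaenol against the mean of its agents it raised the count of genes called from 4 to 8. Oxozeaenol against PD0325901 called 22 genes, 13 with only the libraries compared, 12 without the 3 libraries, and 13 to 25 when 1 library was left out. With only the libraries compared, PI103+oxozeaenol against its mean called 9 in place of 4, and PI103+PD0325901 against PD0325901 called 6 in place of 14. Leaving out 1 library gave 10 to 22 for PI103+oxozeaenol against oxozeaenol, 1 to 5 against its mean, 7 to 13 for PI103+PD0325901 against PD0325901, and 7 to 14 against its mean. Those fits also held fewer libraries, and the cause of these shifts was not tested. The shares of all genes called in the alternative fits are not given here, so the shifts are not read as particular to these genes. Counts against control moved less when 1 library was left out: 27 to 30 for PI103, 31 to 34 for PD0325901, 30 to 34 for oxozeaenol, 28 to 32 for PI103+oxozeaenol and 36 to 38 for PI103+PD0325901. Depth limits TFEB, WIPI1, MCOLN1 and MITF most, and RRAGD, SGSH and CTSL1 could not be tested.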

Other observations

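Among genes of the wider pathway lists, singled out here after their values were seen, some were highest in the combinations. GALC, the galactosylceramidase of lysosomes, averaged 194 ± 14.2 CPM in control (SD, n = 4), 234 ± 9.08 with PI103, 291 ± 12.6 with oxozeaenol and 472 ± 17.2 for PI103+oxozeaenol, with log2 fold changes against control of 0.27, 0.58 and 1.28 for the treated groups. For PI103+PD0325901 it averaged 402 ± 57.7 CPM, and with PD0325901 217 ± 35.4. ATG16L2, a relative of the ATG16L1 subunit of the LC3-conjugating complex, went from 1.20 ± 0.240 CPM in control to 7.55 ± 2.79 for PI103+oxozeaenol, and its log2 fold changes were 1.59, 1.33, 1.79, 2.65 and 2.07 in the order used above.

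SMPD1 and GALNS had their largest log2 fold changes with PD0325901, although for GALNS the value for PI103+PD0325901 was close. SMPD1, the acid sphingomyelinase, averaged 18.3 ± 0.742 CPM in control, 17.9 ± 2.08 with PI103 and 52.5 ± 10.2 with PD0325901, and its log2 fold changes were -0.03, 1.52, 0.73, 0.43 and 1.31. GALNS, a sulfatase of keratan sulfate breakdown, had 0.41, 1.43, 1.02, 1.07 and 1.37. ATG4A, a protease that processes LC3 relatives, fell with PI103, from 21.9 ± 2.61 to 8.999 ± 0.522 CPM, and was at 21.5 ± 2.02 with PD0325901.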
